A study of Homo sapiens with 46 samples.

Results

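Cytoplasmic RNA of human ectoderm-directed cells was compared with cytoplasmic RNA of endoderm-directed cells, both made from H1, an established human embryonic stem cell line. The comparison holds 3 ectoderm and 3 endoderm libraries, chosen by their labelled cell type and fraction, of 46 libraries in the series. The series sequenced RNA of several cell fractions from H1 cells and from cells directed towards the 3 germ layers. Each cell type was deposited as its own count table, built on its own transcript assembly. Rows were summed per Ensembl gene and the ectoderm and endoderm tables joined: 12219 genes stood in both tables, 5494 in the ectoderm table only and 1425 in the endoderm table only. A gene missing from a table was not counted there, so its level in that cell type is unknown and is not given as 0.

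Ectoderm cells were cultured in DMEM/F12 with 15% KOSR, non-essential amino acids and b-mercaptoethanol, to which A83-01, PNU-74654 and Dorsomorphin were added at 2 µM each. Endoderm cells were kept in RPMI with GlutaMax, non-essential amino acids, b-mercaptoethanol and 0.5% FBS, to which WNT3A and 100 ng/ml Activin A were added. Both grew on Matrigel and were collected after 5 days, so basal medium, serum and agents all changed together with the germ layer. Cytoplasm was the supernatant of a mild NP-40 lysis spun over sucrose. Chromatin of the same cell types, the pellet left after the nuclei were lysed with urea, served as the other fraction below and has 3 libraries per cell type.

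Endoderm forms when Activin A, acting like Nodal through type I and type II receptors and the transcription factors SMAD2 and SMAD3, works together with Wnt signalling through beta-catenin and the TCF/LEF factors. Neural ectoderm is what stem cells become when these signals and BMP signalling are blocked: A83-01 inhibits the activin and Nodal type I receptors, Dorsomorphin inhibits the BMP type I receptors, and PNU-74654 blocks the binding of beta-catenin to TCF. RNA in the cytoplasm is mostly spliced and exported mRNA, whereas RNA kept on chromatin includes transcripts still being made.

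The 6 libraries held 14265168 to 18474308 counts each, and levels below are in CPM, the usual unit in which a gene's count is divided by the sum of its library, here the sum at Ensembl genes of the library's own table. Replicates 1, 2 and 3 are given in that order. CPM were compared within a gene and not between genes, since they were not divided by length. Transcripts that name no Ensembl gene took 0.277%, 8.67% and 0.547% of the counts in ectoderm and 2.09% to 3.15% in endoderm, so ectoderm replicate 2 stood apart. Mitochondrially encoded genes took 1.03% to 1.59% of counts in ectoderm and 0.432% to 0.475% in endoderm. A list of 9 noncoding RNAs was taken as nuclear controls: MALAT1, NEAT1, KCNQ1OT1, SNHG14, TUG1, MEG3, GAS5, FTX and JPX. The 8 in both tables summed to 2130.2 to 3106 CPM in ectoderm cytoplasm and 869 to 1094 CPM in endoderm cytoplasm. MALAT1 made up most of the ectoderm sum, and MEG3 is also in the imprinted list. Whether each of these RNAs is mostly nuclear in these cells was not tested. The labels do not say whether replicates were separate cultures, so the p-values measure only the spread between these libraries.

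Differences are log2 of ectoderm over endoderm from edgeR's quasi-likelihood test with TMM scaling, and a gene is called where its Benjamini-Hochberg adjusted p is under 0.05. Of 11923 genes tested, 8818 (74%) were called: 4433 (37.2%) were higher in ectoderm and 4385 (36.8%) higher in endoderm. In the authors' TPM values limma called 3096 higher in ectoderm and 4309 higher in endoderm, so 41.8% of calls were towards ectoderm, against 50.3%. The median difference over all tested genes was 0.00 on the log2 scale, and the median standard error of a called gene was 0.13. Of all tested genes, 4214 (35.3%) were called and changed at least 2-fold, 2216 of them higher in ectoderm and 1998 higher in endoderm. In 76.7% of tested genes the 3 libraries of 1 cell type all lay above the 3 of the other, ectoderm above in 34.6% and endoderm above in 42%. These shares use CPM, which were not scaled by TMM as the calls were. Genes of both tables held 93.4% to 94.8% of the counts in ectoderm and 99.0% to 99.2% in endoderm, which lowers ectoderm CPM beside endoderm CPM. Since about 3 in 4 genes were called, the size of a difference and its direction tell more below than the call alone. Among 596 tested long noncoding RNAs, 318 were higher in ectoderm and 138 in endoderm, with a median log2 difference of 0.74, against -0.04 over 10893 protein-coding genes. The shift was not particular to long noncoding RNAs. The median was 0.81 in pseudogenes, with 89 higher in ectoderm and 27 in endoderm. It was 1.42 in other annotated classes (38 and 10) and 0.73 in genes not in GENCODE 29 (118 and 37). The summed nuclear control RNAs above were higher in ectoderm cytoplasm too, and their part in these shifts was not tested.

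**Figure D1:**
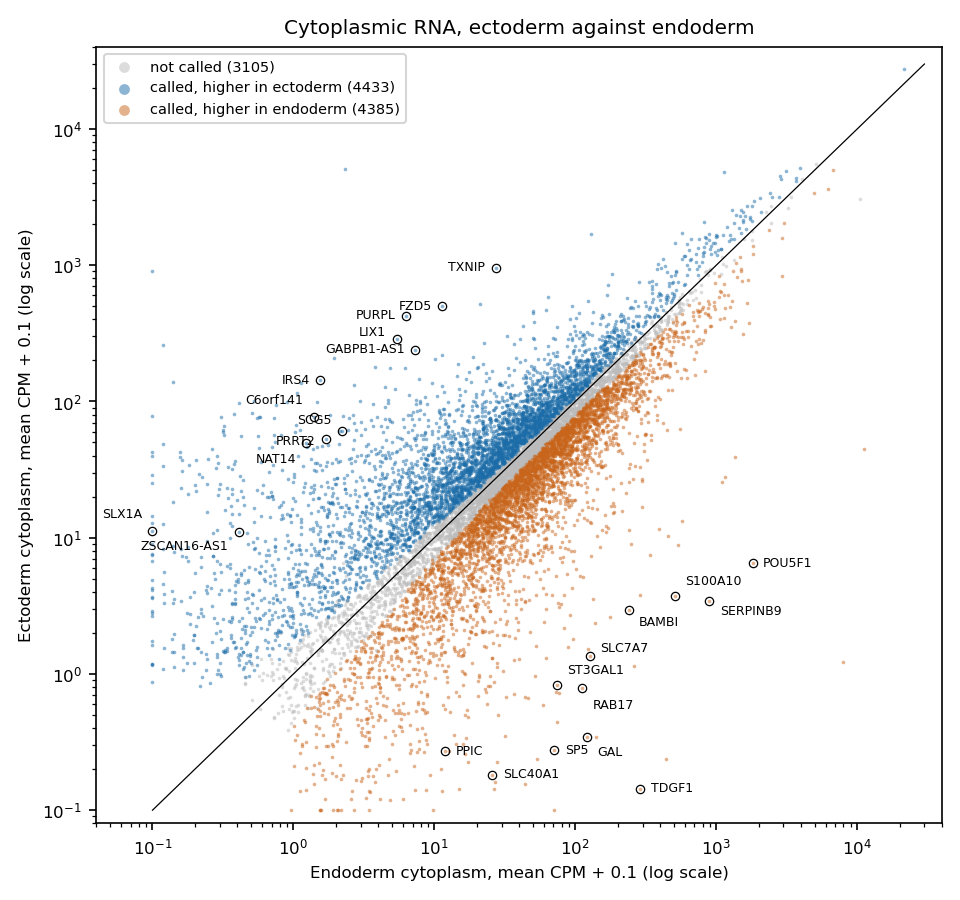
Mean CPM of the 11923 tested genes in endoderm cytoplasm (x axis) against ectoderm cytoplasm (y axis), both on log scales after adding 0.1 CPM, each mean over 3 libraries. Called genes are coloured by direction and the genes named by size of difference are labelled; FZD5, TXNIP and IRS4 lie far above the diagonal and TDGF1, POU5F1 and GAL far below it.

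The largest differences towards ectoderm, among genes that kept their call in every library left out and in both other fits required, included an insulin pathway adaptor, a Wnt receptor and neuronal or secretory genes. IRS4, an insulin receptor substrate, was at 169, 129 and 129.7 CPM in ectoderm and 1.89, 1.88 and 0.577 CPM in endoderm, 104-fold higher in ectoderm (log2 difference 6.70, SE 0.24, edgeR adjusted p 3.44e-10). FZD5, a Frizzled receptor for Wnt ligands, was at 573, 451 and 475 CPM against 11.7, 11.1 and 11.02 CPM (log2 difference 5.57, SE 0.12, edgeR adjusted p 2.44e-11). TXNIP, which binds thioredoxin and limits glucose uptake, was at 1019.6, 909 and 945 CPM against 13.6, 34.3 and 33.3 CPM (log2 difference 5.25, SE 0.29, edgeR adjusted p 8.87e-09). For all 3 genes every ectoderm library lay above every endoderm library, by more than 10-fold. SCG5, a chaperone of the prohormone convertase PC2 in neuroendocrine cells, was at 61.8, 56.4 and 63.5 CPM against 1.50, 3.01 and 1.86 CPM. PRRT2, a presynaptic membrane protein, was at 39.8, 50.6 and 68.3 CPM against 0.612, 3.08 and 1.09 CPM. PURPL, a long noncoding RNA induced by p53, was at 523, 367 and 384 CPM against 4.73, 7.03 and 6.92 CPM. These 3 were 30.8-fold, 36.3-fold and 73.3-fold higher in ectoderm, with no overlap between the groups. In the sums over Ensembl transcripts listed in both tables the log2 differences of SCG5, PRRT2 and PURPL were smaller, at 3.67, 4.50 and 2.30, and without endoderm replicate 2 that of PRRT2 was 6.08.

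LIX1 stood at 289 ± 17.8 CPM in ectoderm and 5.29 ± 1.25 CPM in endoderm (mean ± SD, n = 3 each), C6orf141 at 76.8 ± 6.36 against 1.30 ± 0.621 CPM, and NAT14 at 49.4 ± 2.81 against 1.14 ± 0.742 CPM. SLX1A, a subunit of a structure-specific DNA nuclease, was at 10.97, 11.5 and 10.7 CPM in ectoderm and had no count in any endoderm library. Against a floor of 3 counts in each endoderm library it was at least 60.6-fold higher in ectoderm. SLX1A has a near-identical copy, SLX1B, so how the counting shared reads between them makes its level uncertain. The antisense genes ZSCAN16-AS1 (10.98 ± 1.31 against 0.309 ± 0.137 CPM) and GABPB1-AS1 (239 ± 42.5 against 7.23 ± 2.50 CPM) completed the 12. Whether the counting used strand is not given in the sources used here, so reads of either could belong to its sense partner. NAT14 and GABPB1-AS1 had log2 differences of 2.25 and 2.77 in the sums over transcripts of both tables, and without endoderm replicate 3 that of NAT14 was 6.23, against 5.56 and 5.15 over all transcripts. ZSCAN16-AS1 turned round in the authors' TPM values, to a log2 difference of -2.27 (limma adjusted p 5.86e-12).

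The largest differences towards endoderm included 2 genes of the stem cell state, TDGF1 and POU5F1, the Wnt target SP5 and the decoy receptor BAMBI. TDGF1 had the largest of them, followed by GAL, SP5, SLC40A1 and POU5F1. TDGF1, the Nodal co-receptor also called Cripto, was at 0.0703, 0.0608 and 0 CPM in ectoderm and 237, 331 and 299.5 CPM in endoderm. That is 2 counts over the 3 ectoderm libraries against 14209 over the 3 endoderm libraries, a ratio of 7040 with a 95% counting interval of 1948 to 58135. Without ectoderm replicate 3, which held no TDGF1 count, the fitted log2 difference was -11.85. POU5F1, the pluripotency factor OCT4, was at 5.20, 6.38 and 7.67 CPM against 1577, 1808 and 2043 CPM, 260.2-fold higher in endoderm (log2 difference -8.02, SE 0.19, edgeR adjusted p 2.72e-11). POU5F1 has near-identical processed pseudogenes, and reads could be split among them. Every ectoderm library lay below every endoderm library in both genes.

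GAL, the neuropeptide galanin, was at 0.211, 0.243 and 0.272 CPM in ectoderm and 146, 107 and 108 CPM in endoderm (log2 difference -8.79, SE 0.23, edgeR adjusted p 3.06e-11). SLC40A1, the iron exporter ferroportin, was at 0.0703, 0.122 and 0.0544 CPM against 29.3, 27.1 and 20.5 CPM. S100A10, a partner of annexin A2 at the membrane, was at 3.51, 3.65 and 3.76 CPM against 638, 458 and 432 CPM. SLC40A1 and S100A10 were 268-fold and 129-fold higher in endoderm. The other endoderm genes named by size were SERPINB9, an inhibitor of granzyme B (3.32 ± 0.775 against 893 ± 181 CPM), RAB17, a small GTPase of epithelial cells (0.683 ± 0.239 against 112 ± 11.4 CPM), and SLC7A7, a carrier of cationic amino acids (1.25 ± 0.633 against 127 ± 21.2 CPM). ST3GAL1, a sialyltransferase, stood at 0.735 ± 0.278 against 73.6 ± 14.5 CPM and PPIC, a cyclophilin, at 0.171 ± 0.182 against 11.9 ± 1.89 CPM. SLC7A7 had a log2 difference of -1.78 in the sums over transcripts of both tables, against -6.60, and on the combined assembly ST3GAL1 had -4.73 against -6.56. Without ectoderm replicate 3 the difference of PPIC was -7.24 against -5.86. SP5 and BAMBI, the remaining 2, are described with their pathways. On chromatin, 24 of these 24 genes were called in the same direction as in cytoplasm. Over all genes, 72.8% were called on chromatin, and 86.5% of those called in both fractions had the same direction. The 24 were picked for large differences in cytoplasm.

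Most lineage markers stood in only 1 of the 2 tables. Of 25 neuroectoderm markers, 16 were in the ectoderm table only, 7 in both, 0 in the endoderm table only and 2, SOX1 and FEZF2, in neither. Of 24 definitive endoderm markers, 16 were in the endoderm table only, 7 in both, 0 in the ectoderm table only and 1, FOXA1, in neither. Some markers of 1 table were low. ZIC1, HESX1 and NR2F1 had means of 0.365, 4.76 and 5.16 CPM in ectoderm. LEFTY1, LEFTY2 and GSC had means of 0.593, 0.309 and 2.43 CPM in endoderm. Being listed is no measure of level, because each table lists what its own assembly held, and no test applies to these genes. In bulk libraries such as these, fewer cells of a type and less RNA per cell cannot be told apart.

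The ectoderm table alone held DLK1, an imprinted Notch ligand-like protein, at 4190.3, 4312 and 4383 CPM and SOX11, a neural SRY-box factor, at 858, 736 and 925 CPM. SOX2, a factor of stem cells and neural progenitors, was at 428, 356 and 439 CPM and FEZF1, a forebrain zinc finger factor, at 381, 401 and 377 CPM. MAP2, a neuronal microtubule protein, was at 313, 279.7 and 275 CPM. RAX, SIX3 and LHX2, factors of the eye field and the anterior forebrain, were at 267, 277 and 269, at 191, 186 and 216 and at 152, 149.9 and 151 CPM. In each of these genes the 3 libraries lay close together beside their level. The other genes named by level in this table were H1-10, a linker histone (509.8 ± 22.1 CPM), PRTG, protogenin (364 ± 128 CPM), SEMA6B, a semaphorin (321 ± 17.7 CPM), IGFBP5, which binds insulin-like growth factors (306 ± 19.9 CPM), and RPS2P5, a ribosomal protein pseudogene whose reads may come from its parent gene (339 ± 232 CPM). Of the 5494 genes in this table only, 1065 reached 10 CPM.

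The endoderm table alone held SOX17, which specifies definitive endoderm, at 193, 146 and 145 CPM and GATA4, another endoderm factor, at 192, 150.3 and 157 CPM. FOXA2 was at 33.7, 24.7 and 20.2 CPM, EOMES at 64.3, 48.1 and 41.5 CPM and CXCR4, a surface marker of definitive endoderm, at 4.84, 4.21 and 3.14 CPM. APOA1, an apolipoprotein of visceral endoderm and liver, was at 1179, 888 and 942 CPM, the highest of the genes in this table only. HNF4A, a factor of hepatic and gut endoderm, was at 225, 167 and 171 CPM. These levels varied by less than 2-fold between replicates. Also named by level were S100A14 (584 ± 108 CPM), CST1, a secreted cystatin (224 ± 32.1 CPM), PCAT14, a noncoding RNA (179.9 ± 40.8 CPM), HMOX1, heme oxygenase (159 ± 21.8 CPM), and TBX3, a T-box factor (128 ± 24.7 CPM). Of the 1425 genes in this table only, 137 reached 10 CPM.

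Of the 7 neuroectoderm markers in both tables, 3 (PAX6, NES and NCAM1) were higher in ectoderm and 2, among them VIM, in endoderm. In the sums over Ensembl transcripts listed in both tables, only 4 of the markers could be tested and 0 were called higher in ectoderm. PAX6, a factor of early neural ectoderm, was at 209, 204 and 216 CPM in ectoderm and 2.34, 2.01 and 1.15 CPM in endoderm (log2 difference 6.92, SE 0.17, edgeR adjusted p 2.72e-11). In those sums PAX6 kept 0, 0 and 8 counts in ectoderm and 30, 23 and 12 in endoderm. Its difference there was -2.59 (edgeR adjusted p 0.0515). Nearly all its ectoderm counts lay outside these sums, in Ensembl transcripts not listed in both tables or in isoforms without an Ensembl transcript ID. NES, the neural progenitor filament nestin, was at 561, 537 and 621 CPM against 244, 214 and 244 CPM (log2 difference 1.39, SE 0.10, edgeR adjusted p 7.64e-08). VIM, the filament vimentin, was higher in endoderm, at 706, 584 and 595 CPM against 317, 308 and 273 CPM in ectoderm (log2 difference -0.96, SE 0.10, edgeR adjusted p 2.86e-06).

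Of the 7 definitive endoderm markers in both tables, 4 were higher in endoderm and 2 in ectoderm. S100A16, a calcium-binding protein, was at 25.2, 29.8 and 25.4 CPM in ectoderm and 283, 232 and 258 CPM in endoderm (log2 difference -3.16, SE 0.12, edgeR adjusted p 4.50e-10). The receptor tyrosine kinase gene KIT was at 4.71, 3.71 and 2.83 against 17.8, 16.9 and 13.6 CPM, and PRDM1, the repressor BLIMP1, at 4.71, 4.19 and 4.03 against 22.03, 19.6 and 14.7 CPM. OTX2, which marks anterior endoderm and forebrain alike, was higher in ectoderm, at 179, 176 and 172 CPM against 25.9, 35.5 and 38.95 CPM (log2 difference 2.49, SE 0.14, edgeR adjusted p 1.33e-08). FRZB, a secreted Wnt antagonist, was also higher in ectoderm (140.2 ± 6.46 against 53.9 ± 9.45 CPM). FGF17, another marker higher in endoderm, is given with the FGF genes. In the sums over transcripts of both tables KIT was at -1.27 and PRDM1 at -5.92, against -2.01 and -2.02.

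Pluripotency genes leaned towards endoderm: of 14 tested, 11 were higher in endoderm and 2 in ectoderm, with a median log2 difference of -2.09 against 0.00 over all genes. Besides POU5F1 and TDGF1, the RNA of ESRG, a noncoding RNA of stem cells, was at 9.91, 9.90 and 10.9 CPM in ectoderm and 199, 574 and 596 CPM in endoderm (log2 difference -5.38, SE 0.37, edgeR adjusted p 7.05e-08). DNMT3B, a de novo DNA methyltransferase, was at 154, 168 and 145 CPM against 419, 849 and 845 CPM (log2 difference -2.07, SE 0.22, edgeR adjusted p 3.68e-06). PRDM14, a regulator of the stem cell state, was at 0.492, 0.425 and 0.599 CPM against 11.1, 29.8 and 29.9 CPM. For these 3 genes endoderm replicate 1 was the lowest of its group, and still above all ectoderm libraries. PODXL, a sialomucin of the cell surface, showed less spread, at 40.8, 38.5 and 38.1 CPM against 1493, 1356 and 1209 CPM, 32.1-fold higher in endoderm. The 2 higher in ectoderm were SALL4, with a log2 difference of 0.31, and LIN28B, with 0.53. SALL4 lost its call without ectoderm replicate 2 (edgeR adjusted p 0.0531) and without endoderm replicate 1 (0.053), and LIN28B turned to -1.79 in the sums over transcripts of both tables (adjusted p 4.08e-05). There DNMT3B was at -5.85 and PRDM14 at -3.98. Of the members in 1 table only, NANOG was in the endoderm table, at 57.6, 61.8 and 58.6 CPM, and 3 were in the ectoderm table: SOX2, whose level is given above, UTF1, at 0.633, 0.365 and 1.42 CPM, and LNCPRESS1, listed with no count.

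Markers of other cell types were mostly higher in endoderm too. Of 7 mesoderm markers tested, 5 were higher in endoderm and 2, TBX6 and HAPLN1, in ectoderm (TBX6 was not called in the sums over transcripts of both tables, adjusted p 0.307), and 5 more were in the endoderm table only. In the authors' TPM values HAPLN1 was at -0.49 (limma adjusted p 0.0329). KDR, a receptor of vascular progenitors, was at 1.48, 0.608 and 1.25 CPM in ectoderm and 16.6, 20.3 and 18.1 CPM in endoderm, and HAND1, in the endoderm table only, was at 73.9, 56.3 and 48.6 CPM. The 7 members in both tables summed to 82.9 to 95.6 CPM in ectoderm and 180.7 to 219 CPM in endoderm. TBXT, which defines primitive streak, was in the endoderm table only, at 6.23, 4.08 and 4.87 CPM, and GATA5 and MEF2C were in the ectoderm table only. The other 6 of the 20 mesoderm markers were in neither table: MESP1, MESP2, HAND2, FOXC1, MSGN1 and TWIST1. Of 3 extraembryonic and trophoblast markers tested, 3 were higher in endoderm, among them DAB2 (12.7 ± 1 against 130.2 ± 21.3 CPM), and the 3 summed to 116.5 to 122.4 CPM in ectoderm and 269 to 355 CPM in endoderm. Another 3 of the list, APOA1, CDX2 and HAND1, were in the endoderm table only. The other 8 of its 14 members were in neither table: SOX7, AFP, TTR, APOB, GCM1, CGA, CGB5 and XAGE2. The part of these other cell types in the endoderm differences was not tested.

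Of 12 neural crest and surface ectoderm markers tested, 8 were higher in endoderm and 3 in ectoderm (median log2 difference -1.72). GATA3 was at 2.81, 1.94 and 2.07 CPM in ectoderm and 157, 126 and 128 CPM in endoderm (log2 difference -5.82, SE 0.16, edgeR adjusted p 4.00e-11). KRT8, KRT18 and KRT19, keratins of simple epithelia including endoderm, were 3.29-fold, 3.32-fold and 4.59-fold higher in endoderm. The 3 members higher in ectoderm were SOX10, a neural crest factor (29.9 ± 2.91 against 6.22 ± 0.499 CPM), PAX7 (7.35 ± 0.645 against 0.54 ± 0.116 CPM) and DLX5 (18.1 ± 0.566 against 8.86 ± 1.17 CPM). The 12 summed to 1658 to 1710.3 CPM in ectoderm and 5599 to 7209 CPM in endoderm, of which the 3 keratins gave 1471 to 1532 and 5048 to 6553 CPM. Another 5 markers, SOX9, TFAP2C, PAX3, DLX3 and KRT7, were in the ectoderm table only, and none was in the endoderm table only. The other 3, TFAP2B, TP63 and MSX1, were in neither table.

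**Figure D2:**
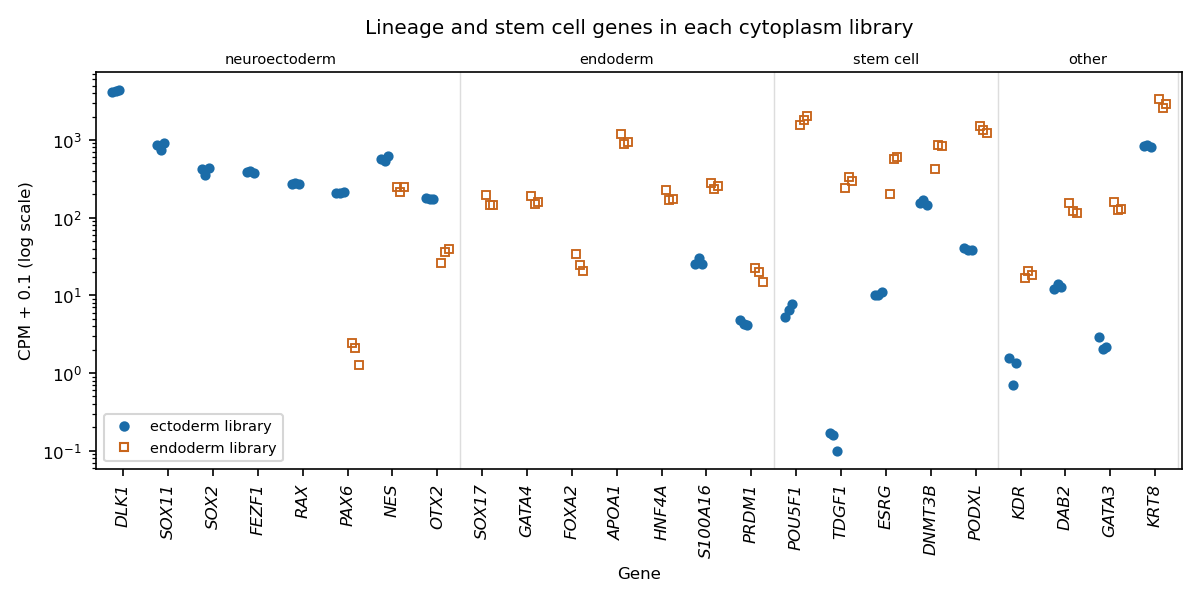
CPM of lineage and stem cell genes in each cytoplasm library, on a log axis after adding 0.1 CPM; filled circles are ectoderm and open squares endoderm, 3 libraries each. A group without points is a table that does not list the gene, as for SOX2 in endoderm and SOX17 in ectoderm, and PAX6, POU5F1 and TDGF1 show no overlap between groups.

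In the Nodal and activin pathway, 10 of 20 genes tested were higher in ectoderm and 9 in endoderm (median log2 difference 0.27), and in the sums over transcripts of both tables, 3 of 15 were higher in ectoderm. Feedback genes of the pathway were among those higher in endoderm. FOXH1, the DNA-binding partner of SMAD2 in Nodal signalling, was at 2.04, 1.40 and 1.69 CPM in ectoderm and 97.96, 85.9 and 106 CPM in endoderm (log2 difference -5.72, SE 0.16, edgeR adjusted p 5.63e-11). SMAD7, an inhibitory SMAD induced by the pathway, was at 2.88, 1.28 and 2.72 CPM against 69.9, 54.9 and 53.8 CPM (log2 difference -4.60, SE 0.22, edgeR adjusted p 2.22e-09). SKIL, a SMAD co-repressor that activin induces, was at 17.4, 10.3 and 12.8 CPM against 142, 140.0 and 81.8 CPM (log2 difference -3.07, SE 0.22, edgeR adjusted p 8.41e-08). FST, the secreted activin binder follistatin, was at 28.9, 20.4 and 25.3 CPM against 127, 97.01 and 85.02 CPM. In these 4 genes the groups did not overlap.

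The SMAD genes that carry the signal were higher in ectoderm, by smaller amounts. SMAD3 was at 50.4, 43.99 and 47.02 CPM in ectoderm and 30.4, 25.1 and 25.4 CPM in endoderm (log2 difference 0.91, SE 0.11, edgeR adjusted p 1.20e-05), and SMAD4, the common partner, at 156, 145 and 138 CPM against 84.7, 86.3 and 74.5 CPM (log2 difference 0.94, SE 0.10, edgeR adjusted p 2.12e-06). SMAD2 was higher in ectoderm by 0.93, but by 0.35 in the sums over transcripts of both tables (edgeR adjusted p 0.062). LTBP1, which holds latent TGF-beta in the matrix, was 3.70-fold higher in ectoderm (78.02 ± 11.7 against 22.6 ± 0.9 CPM). The ligand gene NODAL was in the endoderm table only, at 13.8, 11.5 and 11.1 CPM.

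In the Wnt pathway, 10 of 28 genes tested were higher in ectoderm and 11 in endoderm, with a median log2 difference of 0.00, while 11 more were in the ectoderm table only and 4 in the endoderm table only. Among direct targets and nuclear effectors, SP5, a zinc finger factor that Wnt signalling switches on, was at 0.281, 0.243 and 0 CPM in ectoderm and 90.7, 61.7 and 60.7 CPM in endoderm (log2 difference -8.59, SE 0.35, edgeR adjusted p 7.39e-10). TCF7, a TCF/LEF factor, was at 0.773, 0.851 and 0.98 CPM against 25.9, 25.3 and 22.6 CPM (log2 difference -4.70, SE 0.19, edgeR adjusted p 7.18e-10), and NKD1, a feedback inhibitor, at 8.01, 9.42 and 9.80 CPM against 34.99, 29.2 and 27.6 CPM. ZNRF3, a target that removes Frizzled receptors, went the other way, at 13.5, 15.4 and 17.9 CPM in ectoderm and 8.73, 8.85 and 6.15 CPM in endoderm (log2 difference 1.08, SE 0.18, edgeR adjusted p 1.60e-04), though it was not called in the authors' TPM values (limma adjusted p 0.418). TCF7L1, TCF7L2 and RNF43 were not called (log2 differences -0.14, 0.15 and -0.16), but TCF7L2 was at -1.86 in the sums over transcripts of both tables (edgeR adjusted p 0.000148). LEF1, at 8.79, 8.26 and 7.62 CPM, and NKD2, at 8.65, 9.84 and 8.60 CPM, were in the ectoderm table only. NOTUM, a secreted Wnt deacylase, was in the endoderm table only, at 36.9, 27.2 and 30.9 CPM. In SP5, TCF7 and NKD1 each ectoderm library lay below each endoderm library. So it was for AXIN2, another list member, with a smaller log2 difference of -0.49 (18.6 ± 0.885 against 28.2 ± 0.767 CPM). Without ectoderm replicate 3, which had no SP5 count, the SP5 difference was -7.94, and on the combined assembly the TCF7 difference was -3.42. The members needed to release Wnt ligands, PORCN (8.47 ± 0.453 against 77.8 ± 7.36 CPM) and WLS (55.7 ± 4.38 against 146 ± 28.4 CPM), were higher in endoderm as well.

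Wnt ligands and receptors did not move together. WNT5B was higher in ectoderm, at 71.98, 70.7 and 64.4 CPM against 2.89, 2.13 and 2.76 CPM (log2 difference 4.83, SE 0.15, edgeR adjusted p 8.54e-11), whereas WNT3 was higher in endoderm (1.25 ± 0.373 against 9.60 ± 1.96 CPM). FZD5 and FZD1 were higher in ectoderm, FZD1 at 25.3 ± 1.01 against 7.05 ± 1.17 CPM, and FZD4 was higher in endoderm, at 225, 184 and 147 CPM against 19.1, 16.2 and 18.7 CPM (log2 difference -3.26, SE 0.15, edgeR adjusted p 1.71e-09). LGR4, a receptor for R-spondins, was at 257, 162 and 184 CPM in ectoderm and 49.1, 46.5 and 35.2 CPM in endoderm. The secreted antagonists SFRP1 and SFRP2 were 2.03-fold and 4.47-fold higher in ectoderm, and DKK3 was 5.89-fold higher in endoderm (log2 difference -2.56, and -1.67 in the sums over transcripts of both tables).

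In the BMP pathway, 13 of 18 genes tested were higher in endoderm and 2 in ectoderm, with a median log2 difference of -1.68 against 0.00 over all genes. The ligand genes BMP2 and BMP4 were at 15.5, 12.03 and 14.3 and 36.8, 38.4 and 38.6 CPM in ectoderm and at 137, 118 and 92.8 and 152, 119 and 124 CPM in endoderm. BAMBI, a decoy receptor induced by BMP and TGF-beta, was at 3.51, 1.58 and 3.37 CPM against 291, 220.1 and 208 CPM (log2 difference -6.30, SE 0.22, edgeR adjusted p 2.61e-10). SMAD6, an inhibitory SMAD of the BMP pathway, was at 10.5, 10.3 and 9.96 CPM against 172, 130.3 and 125 CPM (log2 difference -3.69, SE 0.14, edgeR adjusted p 3.97e-10). In all of these genes each endoderm library lay above each ectoderm library. The BMP4 difference of -1.69 was -0.99 in the sums over transcripts of both tables.

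The ID genes are induced by BMP signalling and block basic helix-loop-helix factors. The 3 in both tables were higher in endoderm: ID1 by 3.18-fold, ID2 by 8.09-fold and ID3 by 3.46-fold. ID2 was at 37.7, 34.9 and 37.8 CPM in ectoderm and 373, 312 and 277 CPM in endoderm. ID4 was in the ectoderm table only, at 111, 84.6 and 110.0 CPM, and so were 6 more members of the list: BMP5, GDF6, BMPR1B, SMAD9, CHRD and GREM1. The target MSX2 was at 4.43, 6.01 and 4.79 CPM against 135, 103 and 102 CPM (log2 difference -4.37, SE 0.16, edgeR adjusted p 4.20e-10). The 2 members higher in ectoderm were SMAD5 (144 ± 27.7 against 90.4 ± 18.7 CPM), which carries the signal, and TWSG1 (45.2 ± 11.8 against 31.7 ± 7.49 CPM), which binds BMPs outside the cell. Dorsomorphin was present in the ectoderm medium and in no endoderm medium, so its effect on these genes and that of the cell type cannot be told apart.

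The upstream promoters of SP5, BAMBI, SMAD6 and CHAC1 are shown as examples from the Wnt, BMP and amino acid stress groups, where these genes had some of the larger differences. MSX2 had a larger difference than SMAD6, and SLC7A5 a larger and more precise one than CHAC1. Neither MSX2 nor SLC7A5 is shown. Each window is the 250 bases before the gene's start in RefSeq, build GRCh38.p14, written 5′ to 3′ on the strand of the gene, and capitals mark every match to the 6 motifs named after the sequences, each searched on both strands of each window.
SP5, chr2:170715087-170715336, + strand: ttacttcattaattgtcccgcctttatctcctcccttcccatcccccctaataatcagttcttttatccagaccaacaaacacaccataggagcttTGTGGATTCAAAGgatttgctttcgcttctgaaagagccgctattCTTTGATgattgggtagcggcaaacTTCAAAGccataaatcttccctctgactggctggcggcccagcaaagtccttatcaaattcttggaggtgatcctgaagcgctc
BAMBI, chr10:28677271-28677520, + strand: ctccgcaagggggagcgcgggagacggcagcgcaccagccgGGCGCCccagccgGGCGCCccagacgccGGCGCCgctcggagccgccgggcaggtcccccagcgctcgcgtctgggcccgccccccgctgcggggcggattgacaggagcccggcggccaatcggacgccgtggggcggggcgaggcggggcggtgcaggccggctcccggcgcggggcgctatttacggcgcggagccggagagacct
SMAD6, chr15:66701986-66702235, + strand: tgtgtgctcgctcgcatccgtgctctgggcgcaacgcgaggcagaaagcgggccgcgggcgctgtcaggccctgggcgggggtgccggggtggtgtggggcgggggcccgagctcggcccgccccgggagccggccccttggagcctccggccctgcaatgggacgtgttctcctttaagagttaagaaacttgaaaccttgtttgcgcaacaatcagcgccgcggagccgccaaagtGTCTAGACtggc
CHAC1, chr15:40953221-40953470, + strand: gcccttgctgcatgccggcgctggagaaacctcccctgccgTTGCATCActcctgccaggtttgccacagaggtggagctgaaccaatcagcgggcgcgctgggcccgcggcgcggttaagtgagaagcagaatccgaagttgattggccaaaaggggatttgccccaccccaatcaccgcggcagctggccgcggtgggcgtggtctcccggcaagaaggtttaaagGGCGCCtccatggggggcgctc
In SP5 the capitals are 2 matches to TTCAAAG, at 148 to 142 and 84 to 78 bases before the start, 1 match to ATCAAAG on the opposite strand, at 109 to 103 bases, and 1 match to AATCCACA on the opposite strand, at 154 to 147 bases. ATCAAAG and TTCAAAG are the letters of TCF/LEF sites, and AATCCACA those of FOXH1. The AATCCACA match shares 2 bases with the first TTCAAAG match. Of 35116 windows of the same length, 2.26% hold ATCAAAG, 3.8% hold TTCAAAG and 0.709% hold AATCCACA. In BAMBI the capitals are 3 matches to GGCGCC, a GC-rich SMAD motif, at 209 to 204, 196 to 191 and 181 to 176 bases, which 16.4% of windows hold. In SMAD6 the capitals are 1 match to GTCTAGAC, the SMAD palindrome, at 12 to 5 bases, which 0.182% of windows hold. In CHAC1 the capitals are 1 match to TGATGNAA, the amino acid response motif bound by ATF4, on the opposite strand at 209 to 202 bases, which 3.14% of windows hold, and 1 match to GGCGCC at 22 to 17 bases. GGCGCC and GTCTAGAC read the same on both strands. A match describes letters, and binding at these windows was not measured here.

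**Figure D3:**
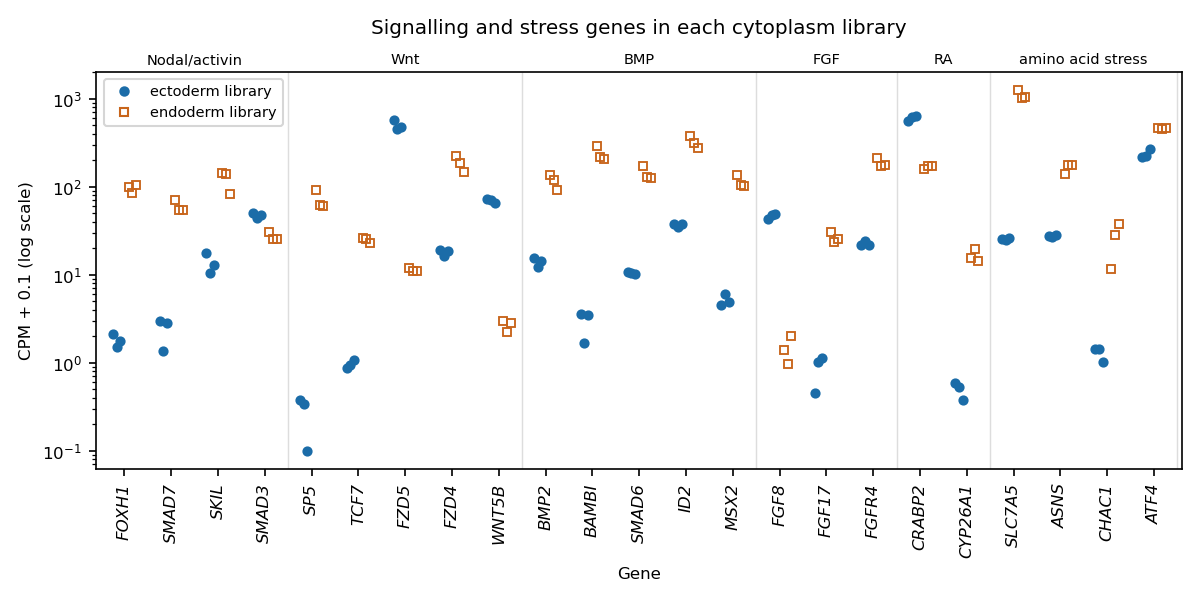
CPM of pathway genes in each cytoplasm library, on a log axis after adding 0.1 CPM, grouped as Nodal and activin, Wnt, BMP, FGF, retinoic acid and amino acid stress genes. Filled circles are ectoderm and open squares endoderm, 3 libraries each; FOXH1, SP5, BAMBI and SLC7A5 lie lower in all ectoderm libraries and FZD5, WNT5B and FGF8 lie higher.

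In the FGF pathway, 8 of 20 genes tested were higher in ectoderm and 10 in endoderm. FGF8, a ligand of the anterior neural ridge, was at 42.8, 47.4 and 48.7 CPM in ectoderm and 1.28, 0.879 and 1.92 CPM in endoderm (log2 difference 5.19, SE 0.21, edgeR adjusted p 6.58e-10), while the related ligand FGF17 was at 0.351, 0.911 and 1.03 CPM against 30.2, 23.7 and 25.6 CPM (log2 difference -4.95, SE 0.26, edgeR adjusted p 5.46e-09). The 4 receptor genes were all higher in endoderm: FGFR1 by 2.39-fold, FGFR2 by 3.46-fold, FGFR3 by 7.81-fold and FGFR4 by 7.63-fold. The differences of FGFR1, FGFR2 and FGF17 were -0.66, -0.97 and -3.67 in the sums over transcripts of both tables. FGFR4 was at 21.8, 24.4 and 21.7 CPM in ectoderm and 209.9, 172 and 176 CPM in endoderm. Feedback genes of the pathway split, with DUSP6 (71.1 ± 3.96 against 39.2 ± 4.63 CPM) and ETV5 (64.2 ± 4.43 against 28.9 ± 0.454 CPM) higher in ectoderm and SPRY4 (8.67 ± 1.35 against 61.5 ± 5.24 CPM) higher in endoderm.

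In the retinoic acid pathway, 3 of 14 genes tested (CRABP1, CRABP2 and RXRB) were higher in ectoderm and 8 in endoderm. The 8 became 5 when any of ectoderm replicate 1, ectoderm replicate 2 or endoderm replicate 1 was left out. They became 4 of 14 in the sums over transcripts of both tables, and 4 of 14 in the authors' TPM values. CRABP2, which carries retinoic acid to its receptors, was at 563, 616 and 640.1 CPM in ectoderm and 161, 171 and 174 CPM in endoderm (log2 difference 1.95, SE 0.10, edgeR adjusted p 4.32e-09). CYP26A1, which breaks retinoic acid down, was at 0.492, 0.425 and 0.272 CPM against 15.5, 19.3 and 14.4 CPM (log2 difference -5.27, SE 0.27, edgeR adjusted p 4.47e-09), and DHRS3, which reduces retinal, at 1.12, 2.67 and 2.01 CPM against 17.02, 16.8 and 20.6 CPM. CYP26A1 and DHRS3 were both higher in endoderm, with no overlap between groups.

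Glycolysis genes leaned towards endoderm: of 25 tested, 19 were higher in endoderm and 3 in ectoderm, with a median log2 difference of -0.79. The 3 were SLC2A1, PFKM and ENO2. The 25 summed to 11519 to 12072 CPM in ectoderm and 17639.5 to 20552 CPM in endoderm. PFKFB3, which makes an activator of phosphofructokinase, was at 14.2, 13.7 and 13.5 CPM in ectoderm and 64.8, 62.1 and 67.1 CPM in endoderm (log2 difference -2.12, SE 0.11, edgeR adjusted p 4.80e-09). HK2, hexokinase 2, was at 22.6, 21.7 and 20.5 CPM against 55.7, 70.3 and 65.2 CPM (log2 difference -1.46, SE 0.12, edgeR adjusted p 3.89e-07). PDK1, which holds pyruvate back from mitochondria, was at 7.10, 6.74 and 7.89 CPM against 70.7, 58.3 and 45.2 CPM (log2 difference -2.89, SE 0.16, edgeR adjusted p 1.17e-08). The 2 main glucose transporters went opposite ways: SLC2A1 was 2.48-fold higher in ectoderm and SLC2A3 2.90-fold higher in endoderm. The 2 media differ in basal formula, and its part in these differences cannot be told apart from that of the cell type.

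Of 18 genes of the amino acid stress response tested, 14 were higher in endoderm and 2 in ectoderm (median log2 difference -1.32). SLC7A5, the large neutral amino acid transporter LAT1, was at 25.6, 24.7 and 26.02 CPM in ectoderm and 1256, 1009 and 1039 CPM in endoderm, 40.2-fold higher in endoderm (log2 difference -5.33, SE 0.12, edgeR adjusted p 2.44e-11). ASNS, asparagine synthetase, was at 27.3, 26.6 and 27.8 CPM against 140.1, 179 and 179 CPM (log2 difference -2.50, SE 0.12, edgeR adjusted p 3.38e-09). CHAC1, which degrades glutathione, was at 1.34, 1.34 and 0.925 CPM against 11.4, 28.1 and 37.5 CPM (log2 difference -4.33, SE 0.43, edgeR adjusted p 1.71e-06). ATF4, the factor that drives these genes, was higher in endoderm by 1.82-fold. The serine and one-carbon genes PSAT1, PHGDH, SHMT2 and MTHFD2 were 2.38-fold, 1.95-fold, 2.41-fold and 4.34-fold higher in endoderm, and MTHFD2 had -1.15 against -2.12 in the sums over transcripts of both tables. The 2 members higher in ectoderm were DDIT4 and the cystine transporter SLC7A11. DDIT4 was at 179, 187 and 191 CPM in ectoderm and 41.3, 115 and 148 CPM in endoderm, where replicate 1 stood below the others, and DESeq2 gave it an adjusted p of 0.083. SLC7A11 was at 41.3, 26.2 and 24.98 CPM against 0.779, 2.07 and 1.22 CPM, but its difference was 0.34 in the sums over transcripts of both tables (edgeR adjusted p 0.585).

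Of 12 fatty acid synthesis genes tested, 10 were higher in endoderm and 2, ACACA and ELOVL5, in ectoderm, with a median log2 difference of -0.81. The 2 became 0 or 1 when any single library was left out. FASN, fatty acid synthase, was at 455, 553 and 437 CPM in ectoderm and 1237, 1091 and 1162 CPM in endoderm (log2 difference -1.17, SE 0.12, edgeR adjusted p 2.09e-06), and SCD, which desaturates fatty acids, at 378, 302 and 320.3 CPM against 974, 842 and 685 CPM (log2 difference -1.22, SE 0.12, edgeR adjusted p 2.26e-06). ME1, malic enzyme, was at 3.66, 1.94 and 1.85 CPM against 18.5, 16.01 and 13.5 CPM. Of 27 genes of cholesterol synthesis and uptake, 14 were higher in endoderm and 5 in ectoderm (median log2 difference -0.36). ACAT2, a thiolase at the start of the pathway, was at 50.5, 50.00 and 47.02 CPM against 209, 191 and 187 CPM (log2 difference -1.89, SE 0.09, edgeR adjusted p 3.54e-09). INSIG1, which retains the sterol sensor in the endoplasmic reticulum, went the other way, at 125, 102 and 107 CPM in ectoderm and 53.4, 44.96 and 36.8 CPM in endoderm (log2 difference 1.41, SE 0.13, edgeR adjusted p 8.14e-07). The ectoderm medium held KOSR and the endoderm medium FBS, and their part was not tested.

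**Figure D4:**
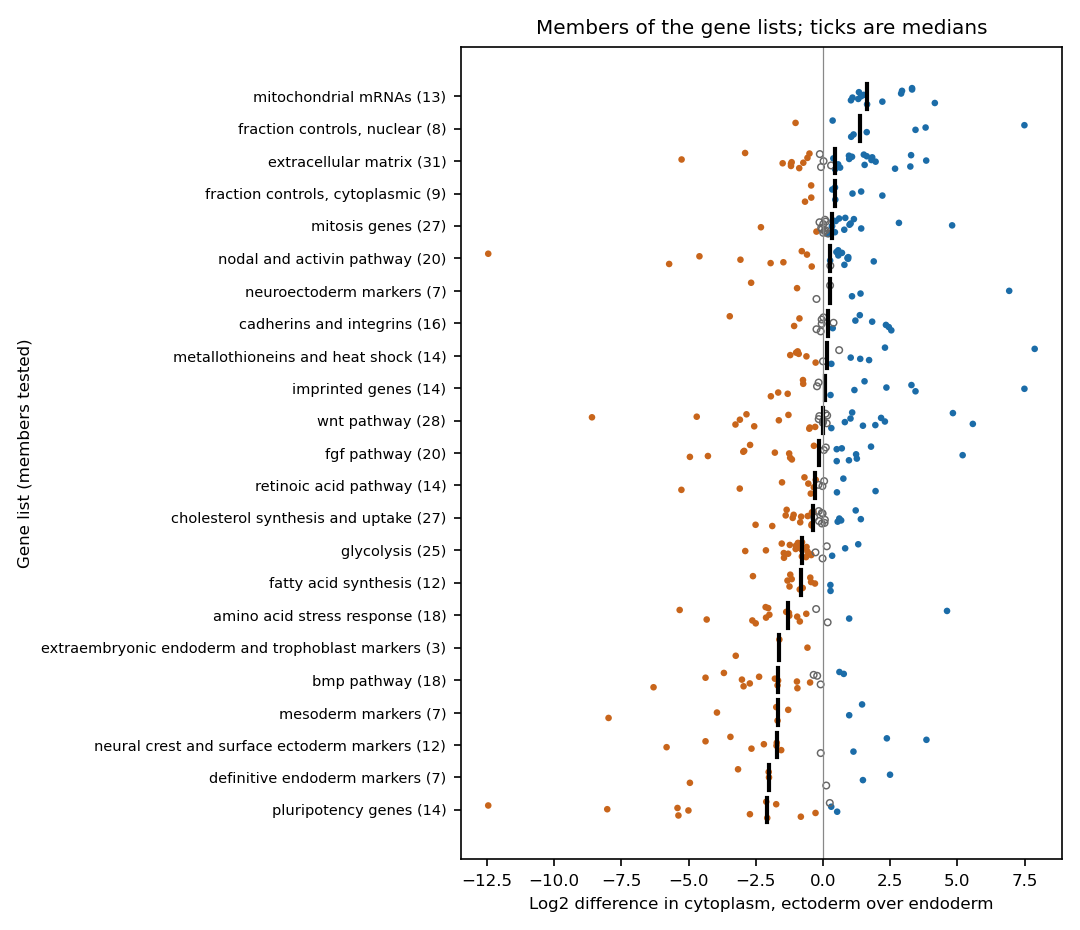
Log2 difference of ectoderm over endoderm in cytoplasm for each tested member of the gene lists, one row per list; filled points were called (edgeR adjusted p under 0.05), open points were not, and vertical ticks are list medians. The BMP, amino acid stress and pluripotency lists have medians below -1 and the mitochondrial mRNA list a median of 1.64.

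Extracellular matrix genes split in cytoplasm: of 31 tested, 17 were higher in ectoderm and 10 in endoderm, with a median log2 difference of 0.45. COL2A1, a fibrillar collagen, was at 191, 168 and 175 CPM in ectoderm and 24.2, 18.02 and 18.2 CPM in endoderm (log2 difference 3.25, SE 0.12, edgeR adjusted p 4.64e-10). FBN1, a fibrillin of microfibrils, was at 22.00, 19.02 and 21.8 CPM against 1.06, 1.82 and 1.86 CPM (log2 difference 3.84, SE 0.21, edgeR adjusted p 9.80e-09), and NID1, nidogen of basement membranes, at 71.1, 55.9 and 57.5 CPM against 6.73, 7.47 and 6.21 CPM (log2 difference 3.28, SE 0.13, edgeR adjusted p 7.95e-10). These 3 were higher in all ectoderm libraries. FN1, fibronectin, was at 30.4, 25.3 and 27.8 CPM in ectoderm and 1323, 1081 and 1034 CPM in endoderm, 38.3-fold higher in endoderm (log2 difference -5.26, SE 0.13, edgeR adjusted p 2.72e-11). VCAN, the proteoglycan versican, was at 17.4, 17.01 and 15.1 CPM against 154, 142 and 100.5 CPM (log2 difference -2.90, SE 0.15, edgeR adjusted p 6.21e-09).

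On chromatin 8660 of 11895 genes tested (72.8%) were called, 4337 (36.5%) higher in ectoderm and 4323 (36.3%) higher in endoderm, and 38.9% were called and changed at least 2-fold. In 77% the libraries of the cell types did not overlap in CPM, ectoderm above in 45.2% and endoderm above in 31.8%. With total counts in place of TMM the median difference of all genes on chromatin moved to 0.30 and 62.6% of calls were higher in ectoderm, against 50.1%. There the matrix list leaned to endoderm: 25 of 32 members were higher in endoderm and 3 in ectoderm, with a median log2 difference of -1.62. The list summed to 9240 to 11757 CPM in ectoderm chromatin and 67187 to 80452 CPM in endoderm chromatin, whereas the sums in cytoplasm were 3157 to 3482 and 3545 to 4296 CPM. The cytoplasmic difference was more positive than the chromatin difference, by the test of the difference itself, in 31 of 32 members and more negative in 0, against 2959 (24.6%) and 3174 (26.4%) of 12036 genes. That difference was called in 6133 genes (51%), and with total counts its median over all genes was -0.30 and 31.5% of its calls were positive, against 48.2%. Among the nuclear control RNAs it was positive and called in 7 of 8 and negative in 0, with a median of 1.84. Among the cytoplasmic control RNAs, which include mitochondrial mRNAs, it was positive in 3 of 9 and negative in 6. The nuclear controls summed to 1698 to 2146 CPM in ectoderm chromatin and 2538 to 2635 CPM in endoderm chromatin. Whether the matrix shift shares a source with that of the nuclear controls was not tested. FN1 had a log2 difference of -5.26 in cytoplasm and -8.67 on chromatin.

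For several matrix genes the 2 fractions went opposite ways. LAMB1, a laminin chain of basement membranes, was at 314, 276 and 276 CPM in ectoderm cytoplasm and 169.7, 143 and 128 CPM in endoderm cytoplasm, and at 628, 591 and 637 CPM and 1659, 1748 and 1568 CPM on chromatin. Its log2 difference was 1.08 in cytoplasm and -1.61 on chromatin, and these differed by 2.63 (SE 0.15, edgeR adjusted p 2.25e-09). COL4A5, a type IV collagen chain, was at 95.5, 72.8 and 78.3 CPM against 35.3, 31.5 and 23.6 CPM in cytoplasm and 249.7, 277 and 234 CPM against 722, 632 and 666 CPM on chromatin, log2 differences of 1.55 and -1.60. The laminin chains LAMB2 (1.63 against -0.94) and LAMC1 (0.96 against -1.40) and the TGF-beta binder LTBP1 (1.89 against -0.59) showed the same pair of signs. FBN2 did so too (1.80 against -1.61), but its cytoplasmic difference was 0.29 in the sums over transcripts of both tables (edgeR adjusted p 0.147).

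**Figure D5:**
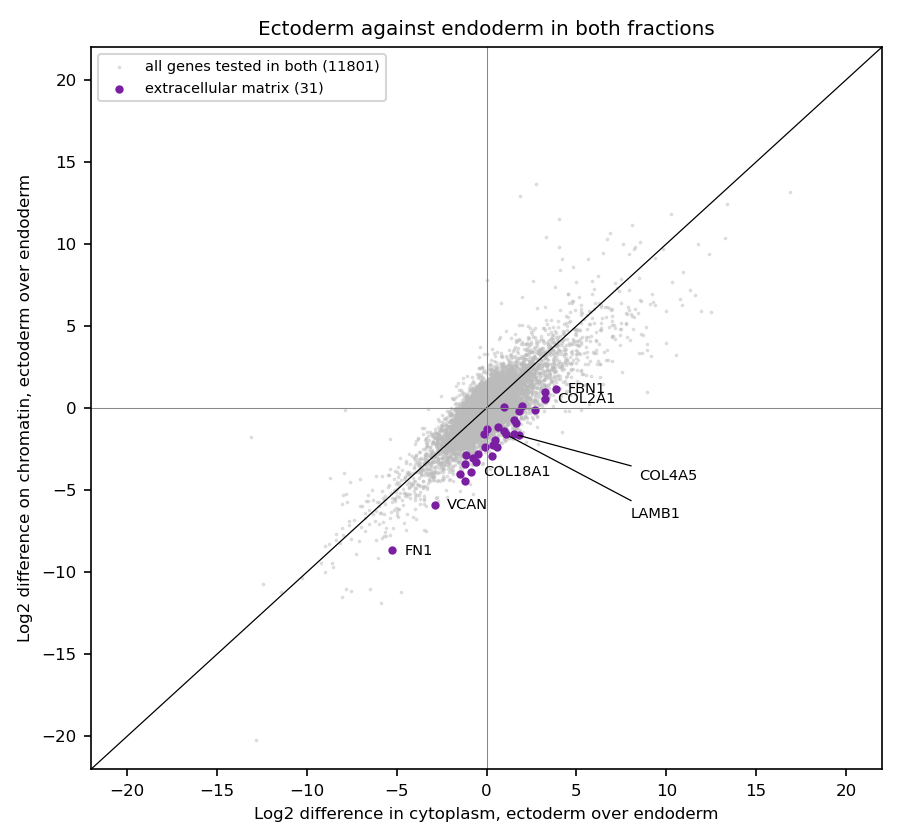
Log2 difference of ectoderm over endoderm in cytoplasm (x axis) against the same on chromatin (y axis) for 11801 genes tested in both fractions; matrix genes are marked. Most marked genes lie below the diagonal, and LAMB1 and COL4A5 lie in the part of the plot with a positive cytoplasmic and a negative chromatin difference.

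Genes of cadherins and integrins also differed between the fractions. In cytoplasm 7 of 16 were higher in ectoderm and 3 in endoderm, and on chromatin 3 and 11. The 7 became 4 of 11 in the sums over transcripts of both tables and 4 of 16 in the authors' TPM values. The difference between fractions was positive and called in 11 and negative in 0. CDH11, a mesenchymal and neural cadherin whose difference was 1.63 in the sums over transcripts of both tables, was at 93.1, 80.4 and 82.3 CPM in ectoderm and 19.2, 15.6 and 12.4 CPM in endoderm (log2 difference 2.54, SE 0.14, edgeR adjusted p 1.08e-08), and CDH4, retinal cadherin, at 14.4 ± 1.61 against 2.85 ± 0.4 CPM. ITGA3, an integrin of epithelia, was higher in endoderm (10.7 ± 0.573 against 24.1 ± 1.99 CPM).

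Over all genes called in both fractions, 5794 of 6695 (86.5%) had the same direction and 901 had opposite directions. In 901 of those 901 the difference itself was called. That was nearly fixed in advance, since they were picked by called differences of opposite sign in the same libraries. Of the 901, 527 were higher in ectoderm cytoplasm and endoderm chromatin, and 374 the reverse. The chaperone gene HSPA5, which folds proteins in the endoplasmic reticulum, was among the 527, with log2 differences of 1.03 in cytoplasm and -1.18 on chromatin. So was MKI67, the marker of dividing cells, with 0.47 and -1.76, though in the authors' TPM values its cytoplasmic difference was not called (limma adjusted p 0.228). So were the noncoding RNAs GAS5 (1.14 and -1.26) and FTX (1.05 and -1.95). GAS5 was at 413, 424 and 438 CPM against 179.7, 207 and 236 CPM in cytoplasm and at 207, 225 and 199 CPM against 482, 412 and 437 CPM on chromatin.

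The largest differences between the fractions that the rule named were in genes with few or no counts in 1 group. In the positive direction they were SLX1A, BDP1, USP53, ZNF135 and RESF1. BDP1, a subunit of the RNA polymerase III factor TFIIIB, was at 50.4, 36.6 and 39.4 CPM in ectoderm cytoplasm and had no count in endoderm cytoplasm, and was at 63.1, 86.1 and 57.2 CPM against 1.79, 1.19 and 0.0905 CPM on chromatin. In the negative direction they were ATP6V1G2-DDX39B, a readthrough of neighbouring genes, U2AF1, a splicing factor with a near-identical copy, PCDHA2, VMO1 and HEATR5A. U2AF1 was at 96.5, 101 and 42.7 CPM against 10.2, 11.3 and 16.5 CPM in cytoplasm and 158, 147 and 148 CPM against 0, 0 and 0 CPM on chromatin. In the sums over transcripts of both tables the cytoplasmic difference of U2AF1 was 2.01 (edgeR adjusted p 0.178). Single libraries decided 2 of the 10: without endoderm chromatin replicate 2 the SLX1A difference between fractions was 0.74 (edgeR adjusted p 0.9998), and without endoderm cytoplasm replicate 1 that of PCDHA2 was -6.52 (0.0608). The others kept their call without each library in turn, but HEATR5A ranged from -8.11 to -3.71, BDP1 from 5.48 to 6.96, and USP53 and VMO1 fell in size to 4.61 and -5.12. How the counting shared reads among copies and overlapping genes makes these levels uncertain.

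Of 14 imprinted genes tested, 7 were higher in ectoderm and 5 in endoderm. The 7 became 3 of 10 in the sums over transcripts of both tables and 4 of 14 in the authors' TPM values. MEG3, a noncoding RNA of the DLK1 locus, was at 67.98, 79.2 and 79.5 CPM in ectoderm and 0.334, 0.314 and 0.705 CPM in endoderm (log2 difference 7.49, SE 0.22, edgeR adjusted p 7.31e-11), and DLK1 itself was in the ectoderm table only. NNAT, neuronatin, was at 420.1, 468 and 487 CPM against 45.1, 46.3 and 59.8 CPM (log2 difference 3.29, SE 0.14, edgeR adjusted p 8.19e-10), and MEST at 959.8, 814 and 815 CPM against 177, 191 and 174 CPM (log2 difference 2.36, SE 0.10, edgeR adjusted p 9.38e-10). CDKN1C, an inhibitor of the cell cycle, was higher in endoderm, at 189.6, 138 and 128 CPM against 34.1, 29.2 and 46.9 CPM (log2 difference -1.94, SE 0.18, edgeR adjusted p 8.53e-07), but its difference was -0.69 in the sums over transcripts of both tables, where MEST was at 1.39.

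All 13 mitochondrial mRNAs tested were higher in ectoderm cytoplasm, with a median log2 difference of 1.64. MT-CO1, a subunit of cytochrome oxidase, was at 5309.7, 3889 and 5357 CPM in ectoderm and 1016, 1229.9 and 1133 CPM in endoderm (log2 difference 2.21, SE 0.14, edgeR adjusted p 3.20e-08), and MT-ND5 at 563, 465 and 737 CPM against 66.2, 63.2 and 61.4 CPM (log2 difference 3.31, SE 0.15, edgeR adjusted p 1.71e-09). For the small genes MT-ND3 and MT-ND4L, ectoderm replicate 3 stood well above the other 2 ectoderm libraries (31.7, 38.6 and 172 CPM and 23.3, 24.8 and 122 CPM). Without it their log2 differences were 1.71 and 1.71, against 2.91 and 2.94. On chromatin 9 of the 13 were higher in ectoderm and 0 in endoderm, and the difference between fractions was positive and called in 12. MALAT1, a nuclear noncoding RNA, was at 2185, 1217 and 1701 CPM in ectoderm cytoplasm and 117, 176 and 95.5 CPM in endoderm cytoplasm (log2 difference 3.81, SE 0.24, edgeR adjusted p 3.11e-08). On chromatin it was at 727, 949 and 584 CPM against 466, 432 and 514 CPM, a log2 difference of 0.49 (edgeR adjusted p 0.0148), which lost its call without ectoderm chromatin replicate 2 (0.28, adjusted p 0.0592), endoderm chromatin replicate 1 (0.48, 0.0587) or endoderm chromatin replicate 2 (0.44, 0.0593). Of the 8 nuclear control RNAs tested 7 were higher in ectoderm cytoplasm and 1 in endoderm. Of 9 cytoplasmic control RNAs 6 were higher in ectoderm and 3 in endoderm. These 9 include MT-ND1, MT-CO1 and MT-CYB, which also belong to the mitochondrial mRNAs above. In the fit without mitochondrial and ribosomal protein genes, 1 of the 4 left was higher in ectoderm. How completely the fractions were separated in the 2 cell types was not tested.

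Of 27 mitosis and cell cycle genes tested, 15 were higher in ectoderm and 2, CCNE1 and BUB1B, in endoderm, with a median log2 difference of 0.33. The 2 became 1 without ectoderm replicate 2 or 3 or without endoderm replicate 2 or 3. CENPE, a kinetochore motor, was at 77.8, 53.5 and 54.3 CPM in ectoderm and 3.00, 2.57 and 1.47 CPM in endoderm (log2 difference 4.80, SE 0.22, edgeR adjusted p 1.81e-09), and CCND2, cyclin D2, at 464, 399 and 444 CPM against 177, 176 and 171 CPM (log2 difference 1.42, SE 0.09, edgeR adjusted p 2.36e-08). CCNE1, cyclin E1, was higher in endoderm (6.79 ± 1.30 against 36.1 ± 1.22 CPM). Of 14 heat shock and metallothionein genes tested, 6 were higher in ectoderm and 6 in endoderm. MT1X, a metallothionein, was at 15.1, 21.1 and 47.5 CPM against 0.0556, 0.314 and 0 CPM (log2 difference 7.87, SE 0.65, edgeR adjusted p 3.54e-07). Ectoderm replicate 3 was its highest library, and without it the MT1X difference was 7.25, while without endoderm replicate 2 it was 9.65. HSPA1A was 3.28-fold higher in ectoderm, though its reads cannot be told from those of its near-identical copy HSPA1B.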

How the data were processed

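RNA of cytoplasm and chromatin was sequenced in 3 libraries each of ectoderm and endoderm cells. The authors deposited whole-number counts per assembled transcript, with 1 table and 1 assembly per cell type, and the same tables as TPM. The submitters' processing notes name STAR, RSEM and the build hg38; versions, settings and strand use are not given in the sources used here. The deposited counts may be rounded estimates, and 1 column that matches no sample was not used. Samples were grouped by their labels. Counts were summed per Ensembl gene, without version, and joined on genes of both tables. Transcripts naming no Ensembl gene stayed out of library sizes and tests, and their shares stand in the report. Since each table has its own assembly, part of a gene's difference can come from which transcripts a table lists. Sums over Ensembl transcripts of both tables were the alternative for this. They left out every isoform without an Ensembl transcript ID. They kept 71.9% of the cytoplasm counts in ectoderm and 80.1% in endoderm.

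Genes were filtered with filterByExpr (minimum count 10), scaled by TMM and tested with edgeR 4.0.16's quasi-likelihood F test (R 4.3.3), two-sided, with Benjamini-Hochberg adjustment over all genes tested and calls at an adjusted p under 0.05. The cytoplasm and chromatin fits held 6 libraries each, and the difference between fractions was the interaction over 12. DESeq2 1.42.0, limma 3.58.1 on log2 of the authors' TPM plus 1, other scalings, no filter, the combined assembly, all 4 cell types, a replicate block, a 2-fold minimum and each library left out were the alternatives. Counting intervals and floors (3 counts in each library) cover counting error only. The fits were tested on simulated data. Tables were handled with Python 3.11.15, pandas 2.3.3, numpy 2.4.6 and scipy 1.17.1.

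Genes were named by 4 rules. The first took the 12 largest differences in each direction among called genes with no overlap between groups, at least 10 CPM in the higher group, and a call of the same sign without each library, in DESeq2 and in the sums over transcripts of both tables. The second took the 10 highest mean levels among genes of 1 table only. The third took members of the 23 gene lists shown in the plot of list members, up to 4 in each direction and any needed to describe the group. The last took up to 5 in each direction with the largest difference between fractions. Genes shown with opposite signs in the fractions beyond these were chosen after their values were seen. A few genes that the rules name are not reported here. The comparison and the lists were chosen with earlier results of these data known.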

Additional observations from a re-analysis of the deposited data

Results flagged for a closer look

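The difference between ectoderm and endoderm was itself different in cytoplasm and on chromatin, by edgeR's interaction test over 12 libraries, for each gene below. Among matrix and secretory genes the adjusted p of that test was 2.25e-09 for LAMB1, 2.64e-09 for COL4A5, 6.88e-09 for LAMB2, 6.38e-08 for LAMC1, 1.97e-08 for LTBP1, 1.07e-08 for FBN2 and 5.45e-08 for HSPA5. For MKI67 and the noncoding RNAs GAS5 and FTX it was 1.15e-08, 1.8e-08 and 7.91e-09. All of these were higher in ectoderm in cytoplasm and higher in endoderm on chromatin. They were picked for these opposite signs in the same libraries, so a called difference was nearly fixed in advance.

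Of the genes with the largest such differences, those with a more positive difference in cytoplasm were SLX1A (edgeR adjusted p 0.009), BDP1 (0.00236), USP53 (0.00589), ZNF135 (0.00026) and RESF1 (2.8e-06). Those with a more negative one were ATP6V1G2-DDX39B (9.97e-08), U2AF1 (7.14e-07), PCDHA2 (0.0114), VMO1 (0.00193) and HEATR5A (2.02e-05). SLX1A and PCDHA2 lost their call when 1 endoderm library was left out, as given in the report.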

How the results depend on the processing

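The number of genes called in cytoplasm, 8818, lay between 7405 (the authors' TPM) and 8900 (no filter) under the alternatives on all genes, at 5921 of 9144 in the sums over transcripts of both tables, and at 8317 to 8632 with 1 library left out. On chromatin 7932 to 8557 genes, and for the difference between fractions 5546 to 6081, were called with 1 library left out. A 2-fold minimum left 4214 in cytoplasm, 4622 on chromatin and 2793 for the difference, as a stricter rule must. The replicate block gave 8880, 8486 and 6165 calls; same-numbered ectoderm and endoderm cytoplasm libraries had correlations of 0.116, -0.127 and 0.106 in their deviations, so the numbers were not treated as pairs. Of 151 called genes named with cytoplasm values, 136 kept call and direction in every alternative run that tested them, other than the 2-fold minimum. A gene that an alternative did not test was not counted as lost there. The genes named by size of difference were chosen in part for keeping their call in several of these runs. The 136 are therefore an upper count. Direction turned for PAX6 (-2.59), LIN28B (-1.79) and the uncalled TCF7L1 (0.10) and TCF7L2 (-1.86) in the sums over transcripts of both tables, and for ZSCAN16-AS1 (-2.27), HAPLN1 (-0.49) and TCF7L2 (-0.0274) in the authors' TPM, whose median over all genes was -0.12; the cause was not tested. The TPM values moved the fold of 58 named genes by over 1.5 times, the sums over transcripts of both tables that of 29 and the combined assembly that of 4. With 3 libraries per group and assemblies that differ, small differences and genes near 0 counts are the least certain.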
